A study of Mus musculus with 30 samples.

Results

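The change in wild type (WT) skin from day 1 to day 2 after TPA rests on 6 of the 30 arrays of the study, 3 from WT mice taken on day 1 and 3 from WT mice taken on day 2, chosen by their labels and compared across all genes. TPA is a phorbol ester that irritates skin and thickens the epidermis, and each mouse of these 2 groups had 3 applications of 50 µM TPA in acetone, 24 h apart, on shaved back skin. All mice were 129–C57BL/6 females of 8 to 12 weeks, and RNA of whole back skin was hybridized to a 3′ expression array. The other 24 arrays were from WT mice on days 4 and 6, from acetone-treated WT mice (called day 0), and from D6-deficient mice in the same 5 states, with 3 arrays in each of 10 groups. D6, the product of Ccbp2 (now Ackr2), is a receptor that takes up and degrades inflammatory chemokines. Every day was sampled from different mice, so a day and the set of mice taken on that day cannot be told apart. In bulk skin, a larger number of cells of a type and more RNA per cell cannot be told apart either.

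Irritated epidermis replaces its usual program of terminal differentiation with one that makes small proline-rich proteins, late cornified envelope proteins of the Lce3 type, stress keratins and antimicrobial peptides, and it releases cytokines of the IL-1 family that attract neutrophils. Back skin also holds hair follicles, which pass through cycles of growth and rest. A growing follicle makes inner root sheath and shaft keratins, expresses Shh, and houses melanocytes that load pigment into the shaft. Skin cells further run a circadian clock in which activators drive their own repressors.

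The 6 arrays were alike over all 45037 probe sets other than controls. Correlations between arrays were 0.987 to 0.994 and medians 5.69 to 5.73 on the log2 scale. The median SD between arrays of a group was 0.141 on day 1 and 0.153 on day 2. Of 18 spiked hybridization control probe sets, the mean level separated the 30 arrays into a set of 13 and a set of 17. WT day 1 had 2 arrays in the first set and 1 in the second, and WT day 2 had 1 and 2. Differences within each set are therefore given for some of the leading genes below, and each rests on 1 array for 1 of the days. Several rises were larger in the first set than in the second, such as Sprr2i (3.92 and 1.68), Uox (4.39 and 2.54) and Il1a (2.00 and 0.62). The rise of Spink12 (2.44 and 3.53) was larger in the second set, as were falls such as that of Krt73 (-4.70 and -6.90). Some arrays stood apart in particular gene groups. WT day 1 replicate 2 was the lowest day 1 array in 19 of 21 hair shaft and inner sheath genes and 8 of 9 melanocyte genes. It was also the lowest in 8 of 12 antimicrobial and 7 of 9 small proline-rich genes, lists with a positive median difference. In the neutrophil list it was the lowest in 8 of 20 genes, and WT day 2 replicate 2 was the highest day 2 array in 17. WT day 2 replicate 2 was also the highest of its day in 5 of 6 neutrophil-attracting chemokines and 8 of 12 antimicrobial genes. The same held for 14 of 26 macrophage and 9 of 16 IL-1 family genes. It was the highest in 3 of 9 small proline-rich, 6 of 21 hair shaft and inner sheath and 5 of 9 melanocyte genes. P values set a difference against the spread between mice within groups, pooled over all 30 arrays and not only these 6. In these arrays 5 keratinocyte markers had a mean level of 13.47 to 13.62 on day 1 and 13.62 to 13.74 on day 2, and 4 fibroblast markers of 12.77 to 13.39. Markers of B cells were at 3.63 to 4.66 and of hepatocytes at 6.29 to 7.54, and levels of different probe sets are not compared here.

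The D6 transcript did not separate the WT days. Its probe set 1437937_at gave 6.69, 7.24 and 6.86 on day 1 and 7.07, 6.78 and 7.76 on day 2, a log2 difference of 0.27 ± 0.25 (SE, limma adjusted p = 0.68).

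Of 36029 probe sets tested, 82 were called between the days, at an adjusted p under 0.05 in limma and a change of more than 3-fold, which is 0.228% of those tested. Of these, 39 were higher on day 2 (0.108%) and 43 were lower (0.119%). With no fold threshold 432 probe sets passed (1.2%), 228 higher (0.633%) and 204 lower (0.566%). The median log2 difference of all tested probe sets was 0.00. The called probe sets with 1 symbol stood for 71 genes, 33 higher and 38 lower. All 3 day 2 arrays lay above all 3 day 1 arrays in each of the 39 called higher, and below them in 42 of the 43 called lower, against 9.01% and 10.7% of all tested probe sets. The number called ranged from 39, without WT day 1 replicate 3, to 92, without WT day 2 replicate 3, and it was 43 without WT day 2 replicate 2. Without WT day 1 replicate 2 it was 81, but with 18 higher and 63 lower. Without each array in turn, the number called higher ranged from 18 to 57 and the number called lower from 21 to 63. A fit to the 6 arrays alone called 30.

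**Figure D1:**
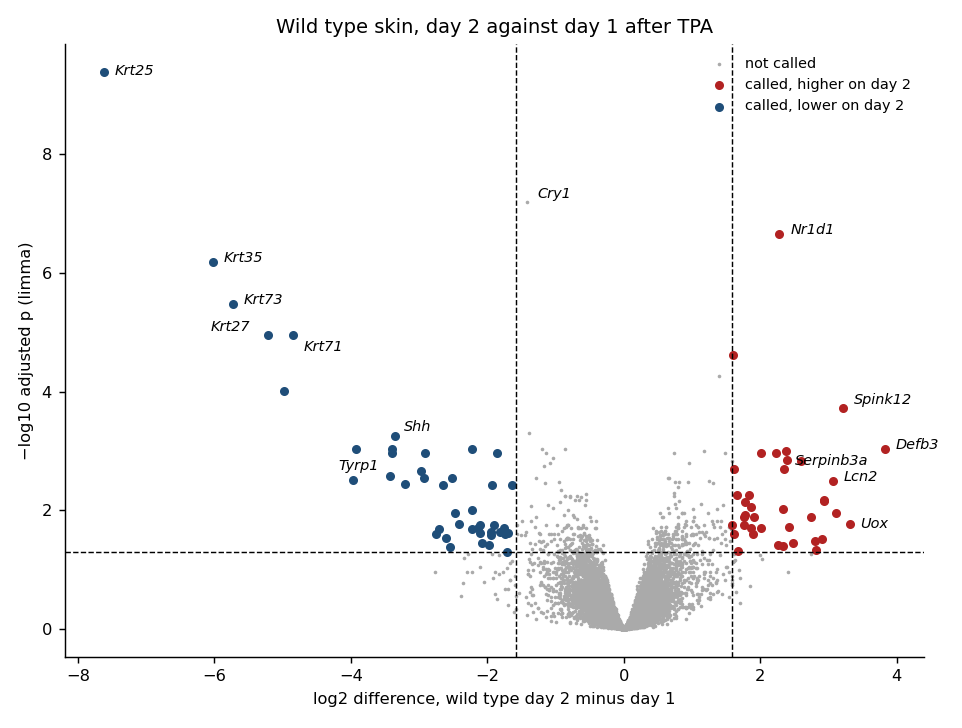
Log2 difference of WT day 2 minus day 1 (x axis) against −log10 of the limma adjusted p (y axis) for 36029 probe sets, with dashed lines at 3-fold and at an adjusted p of 0.05. The 43 probe sets called lower (blue) reach a difference of -7.62 for Krt25, the 39 called higher (red) reach 3.83 for Defb3, and Cry1 had the second smallest adjusted p with a change under 3-fold.

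Hair follicle transcripts fell from day 1 to day 2. In the list of hair shaft and inner root sheath genes 10 of 21 tested genes fell and none rose, with a list median of -2.35 against 0.00 over all genes. Over all 17772 genes, taken by their brightest probe set, 1.62% passed in either direction and 0.72% were lower. Of the 34 genes called lower by their brightest probe set (0.191%), 19 stood in the lists of hair shaft genes, hair cycle signals or melanocyte genes. Of the 32 called higher (0.18%), 13 stood in the lists of cornified envelope, serpin or antimicrobial genes.

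Krt25, a keratin of the inner root sheath (1418173_at), measured 12.42, 9.91 and 12.16 on day 1 and 3.94, 3.93 and 3.77 on day 2 on the log2 scale. The day 1 arrays were all far above the day 2 arrays, and replicate 2 was the lowest of day 1. The difference was -7.62 ± 0.46 (SE, limma adjusted p = 4.1e-10), with -7.10 within the first set of arrays and -8.57 within the second. Its day 2 values lay near the lowest mean kept in the test (3.72), so the difference may understate the fall.

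Krt71, another inner root sheath keratin, was at 11.37, 8.80 and 10.98 on day 1 and at 5.49, 5.70 and 5.41 on day 2 (-4.85 ± 0.52, limma adjusted p = 1.1e-05). Krt35, a keratin of the hair shaft, was at 11.06, 8.27 and 10.87 on day 1 and at 3.94, 4.28 and 3.93 on day 2 (-6.02 ± 0.55, adjusted p = 6.6e-07). In both, day 1 replicate 2 was again the lowest of its day, with no overlap between the days. The further inner sheath keratins Krt73, Krt27 and Krt28 fell by 5.73, 5.21 and 4.98 (a second, dimmer probe set of Krt28 had -1.83, adjusted p = 0.057), and the shaft keratin Krt85 fell by 3.93. Tchh encodes trichohyalin, the matrix protein of the inner sheath, and fell by 3.42. S100a3, a calcium-binding protein of the hair cuticle, fell by 3.97, and Padi3, an enzyme that citrullinates trichohyalin, fell by 2.60. Other shaft genes did not pass. Krt33a, a shaft keratin, was at 7.88, 4.23 and 6.15 on day 1 and at 3.77, 3.50 and 3.95 on day 2 (-2.35, limma adjusted p = 0.17), and Krt31, Krt34, Krt86 and the keratin-associated genes Krtap8-1, Krtap4-7 and Krtap3-1 had differences of -1.58 to -0.22 that did not pass. In 19 of the 21 genes replicate 2 was the lowest of the day 1 arrays. The count that fell was between 9 and 11 without each array in turn, and it was 5 in the fit to the 6 arrays alone.

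The day 2 level of Krt25 was near that of control skin. It was at 3.65 to 4.15 in acetone-treated WT skin, at 3.54 to 4.28 on day 4 and at 11.40 to 12.80 on day 6. Its level was thus high on days 1 and 6 and low on days 0, 2 and 4. D6-deficient skin, measured in other mice, had the same sequence, with Krt25 at 3.68 to 4.63 on day 0, 12.16 to 12.71 on day 1, 3.68 to 3.91 on day 2 and 12.00 to 13.65 on day 6. The hair cycle stage of the mice of each day is not given in the sources used here. Its part in the values of hair follicle, hair cycle and melanocyte genes was not tested.

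**Figure D2:**
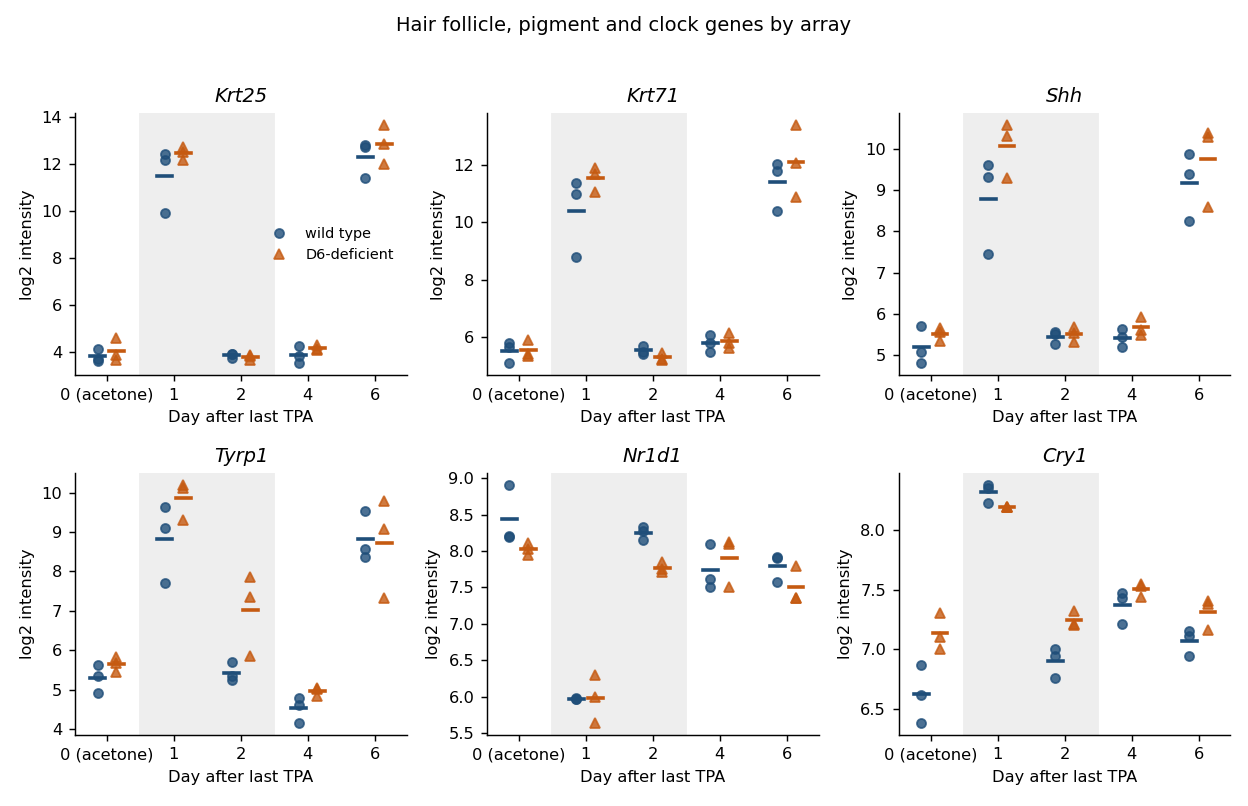
Log2 intensity (y axis) of 6 genes by day after the last TPA application (x axis, day 0 is acetone alone) in WT arrays (blue circles) and D6-deficient arrays (orange triangles), 3 per group, with a bar at each mean and days 1 and 2 shaded. In WT skin Krt25, Krt71, Shh and Tyrp1 are high on days 1 and 6 and low on days 0, 2 and 4, as are the first 3 in D6-deficient skin, where Tyrp1 on day 2 reaches 7.85, with WT day 1 replicate 2 below the other day 1 arrays, while Nr1d1 is low and Cry1 high on day 1 alone.

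Krt25 and Krt27 lie close together on chromosome 11, and the promoter of each holds the letters TATAAA, those of a TATA box. The letters are capitalized in the RefSeq promoter windows shown here (250 bases before to 50 bases after the gene start, GRCm38.p6, minus strand). Krt25 covers chr11:99322902-99323201, with the match starting 30 bases before the gene start, and Krt27 covers chr11:99351069-99351368, with the match 15 bases before it.
Krt25: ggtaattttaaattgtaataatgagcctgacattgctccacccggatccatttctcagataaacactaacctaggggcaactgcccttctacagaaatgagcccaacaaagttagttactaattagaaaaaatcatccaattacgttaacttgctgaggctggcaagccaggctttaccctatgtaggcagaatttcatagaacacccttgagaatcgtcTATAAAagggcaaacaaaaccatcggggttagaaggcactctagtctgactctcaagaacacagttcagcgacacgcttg
Krt27: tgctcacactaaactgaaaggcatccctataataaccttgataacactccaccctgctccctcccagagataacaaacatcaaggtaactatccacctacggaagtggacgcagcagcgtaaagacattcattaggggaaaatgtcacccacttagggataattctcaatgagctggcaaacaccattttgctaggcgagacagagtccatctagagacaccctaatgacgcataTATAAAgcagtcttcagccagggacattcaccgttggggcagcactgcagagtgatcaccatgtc
Of the 21 tested genes of this list, 16 had a promoter in the table and 13 of these held TATAAA on either strand, against 13.6% of all 32851 promoters. The windows of Tyr, Sprr2f and Sprr2i printed further below hold TATAAA too, without capitals. The motifs printed for this and the following groups were picked from a longer set after the promoters had been searched, so the shares are descriptions.

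Some of the hair cycle signals fell with the keratins. In the hair cycle list 5 of 17 tested genes fell and none rose, and the list median was -0.54. Shh, the morphogen of the growing follicle (1436869_at), was at 9.31, 7.46 and 9.61 on day 1 and at 5.51, 5.27 and 5.55 on day 2. The days did not overlap, and day 1 replicate 2 was again the lowest of its day. The difference was -3.35 ± 0.47 (limma adjusted p = 5.7e-04), while a second, dimmer probe set of Shh had a difference of -0.77.

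Gli1, a transcription factor and target of Shh signalling, fell by 1.90, with 7.66, 6.11 and 7.53 on day 1 and 5.29, 5.20 and 5.12 on day 2. Msx2 and Lhx2, homeodomain factors of the follicle, fell by 2.47 and 2.23, and Bmp4, a growth factor of the dermal papilla, fell by 0.83. Lef1, which mediates Wnt signals in the hair matrix, had a difference of -1.22 that did not pass (adjusted p = 0.074), and neither did Hoxc13, a regulator of hair keratins, at -1.88 (adjusted p = 0.11). Other genes of Shh and Wnt signalling stood outside the list. By the brightest probe set, Ptch1, the Shh receptor, fell by 1.43, and Gli2, a transcription factor of the pathway, by 1.18. Wif1, a secreted Wnt inhibitor, fell by 2.11. Mycn, a proto-oncogene that Shh signalling induces, gave unlike values by probe set, with 0.18 for the brightest (adjusted p = 0.68) and -2.41 for another (adjusted p = 0.017). These 4 were named after their values were seen. The count of the list that fell was 1 without WT day 1 replicate 3, where Msx2, Lhx2 and Gli1 had differences of -2.10, -1.94 and -1.69 and no longer passed, and 0 in the fit to the 6 arrays alone. Lhx2 also lost its call without WT day 2 replicate 2 (adjusted p = 0.065), as did Gli1 without that array or WT day 1 replicate 1 (0.091 and 0.069).

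Melanocyte transcripts fell as well. In the melanocyte list 5 of 9 tested genes fell and none rose, with a median of -2.55. Tyrp1, an enzyme of melanin synthesis (1415862_at), was at 9.11, 7.72 and 9.64 on day 1 and at 5.70, 5.36 and 5.24 on day 2. The difference was -3.39 ± 0.51 (limma adjusted p = 0.0011), and both other probe sets of Tyrp1 passed too, at -3.20 and -2.65.

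Dct, which acts beside Tyrp1 in the pathway, was at 10.48, 8.59 and 10.49 on day 1 and at 6.96, 6.89 and 6.92 on day 2 (-2.93 ± 0.49, adjusted p = 0.0029). Tyr, the rate-limiting enzyme of melanin synthesis, was at 7.88, 5.20 and 8.07 on day 1 and at 4.36, 4.42 and 4.13 on day 2 (-2.75 ± 0.62, adjusted p = 0.025). In all of these the day 1 arrays lay above the day 2 arrays, with replicate 2 nearest to them. Si (now Pmel), which builds the fibrils on which melanin is laid down, fell by 2.97, and Mlana, a melanosome protein, fell by 2.55. Mitf, the master regulator of the lineage, which is also expressed elsewhere, was at 8.88, 9.04 and 8.99 on day 1 and at 8.80, 8.68 and 9.03 on day 2 (-0.13 ± 0.11, adjusted p = 0.66). Between 3 and 6 genes of the list fell without each array in turn, and 1 in the fit to the 6 arrays alone. Tyr lost its call without WT day 1 replicate 1 or 3 and without any 1 of the day 2 arrays, at adjusted p values of 0.066 to 0.21.

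The promoters of Tyr, Tyrp1 and Dct, shown because these 3 genes fell together, each held the letters TCATGTG on one strand or the other, a motif known as the M-box that melanocyte promoters share. The windows are chr7:87493463-87493762 for Tyr (minus strand), chr4:80833963-80834262 for Tyrp1 (plus strand) and chr14:118052197-118052496 for Dct (minus strand), from RefSeq on GRCm38.p6, with each match in capitals.
Tyr: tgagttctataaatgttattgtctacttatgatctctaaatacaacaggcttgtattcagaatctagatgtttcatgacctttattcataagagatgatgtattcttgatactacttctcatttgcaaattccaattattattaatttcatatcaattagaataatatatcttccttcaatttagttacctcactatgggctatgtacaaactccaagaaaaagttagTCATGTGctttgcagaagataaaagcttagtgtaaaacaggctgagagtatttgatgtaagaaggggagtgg
Tyrp1: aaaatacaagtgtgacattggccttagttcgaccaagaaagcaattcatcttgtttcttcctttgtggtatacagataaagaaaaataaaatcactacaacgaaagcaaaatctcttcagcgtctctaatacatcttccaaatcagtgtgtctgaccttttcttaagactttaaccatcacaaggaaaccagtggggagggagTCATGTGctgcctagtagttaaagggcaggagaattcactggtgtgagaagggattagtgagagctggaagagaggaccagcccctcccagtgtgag
Dct: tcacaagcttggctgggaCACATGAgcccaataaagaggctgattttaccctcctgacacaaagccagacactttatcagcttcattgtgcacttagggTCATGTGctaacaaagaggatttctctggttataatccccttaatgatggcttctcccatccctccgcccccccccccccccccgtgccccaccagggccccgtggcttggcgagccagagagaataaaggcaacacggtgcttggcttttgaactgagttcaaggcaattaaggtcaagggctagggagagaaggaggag
The match began 22 bases before the gene start in Tyr and 47 bases before it in Tyrp1, and Dct held 2 matches, 1 of them on the opposite strand. Of the 9 tested genes of the list, 6 had a promoter in the table and 4 held the motif, the fourth being Mc1r, against 3.77% of all promoters. Mc1r, the receptor for melanocyte-stimulating hormone, did not pass (adjusted p = 0.29).

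The follicle and the melanocyte were the only cell types, of 16 for which markers were listed, with a marker past the test. Of 4 hair follicle markers, the inner sheath keratins Krt25, Krt27 and Krt71 fell, and the shaft keratin Krt33b did not pass. The mean level of the 4 was 7.98 to 10.47 over day 1 arrays and 4.60 to 4.91 over day 2 arrays. All 4 of 4 melanocyte markers fell. Neutrophil markers were at 7.18 to 7.64 on day 1 and at 7.68 to 8.33 on day 2, and macrophage markers at 10.93 to 11.08 and 11.25 to 11.39, with none of 8 and of 5 passing. Fibroblast markers were at 13.21 to 13.39 on day 1 and at 12.77 to 13.08 on day 2, and adipocyte markers at 11.93 to 12.55 and at 11.26 to 12.14, again with none passing. The part of these markers in the other changes between the days was not tested.

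Epithelial antimicrobial proteins rose. In that list 6 of 12 tested genes rose and none fell, and its median was 2.02, the highest of the 41 lists, against a background of 0.9% of all genes higher. All 12 had a higher mean on day 2, and WT day 2 replicate 2 was the highest day 2 array in 8 of the 12. The count that rose was 4 without WT day 1 replicate 2, WT day 2 replicate 1 or WT day 2 replicate 2, and 3 in the fit to the 6 arrays alone.

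Defb3, a beta-defensin (1421806_at), was at 8.62, 7.23 and 8.62 on day 1 and at 11.87, 11.91 and 12.19 on day 2. The day 2 arrays were close together and all above day 1. The difference was 3.83 ± 0.55 (limma adjusted p = 9.2e-04), a 14.2-fold rise, with 3.94 within the first set of arrays and 3.43 within the second.

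Lcn2, the siderophore-binding lipocalin, was at 8.38, 7.92 and 8.10 on day 1 and at 11.24, 12.48 and 9.85 on day 2 (3.06 ± 0.52, adjusted p = 0.0032). Here the day 2 arrays spread widely, with replicate 2 the highest. Defb4, a second inducible beta-defensin, was close to the lowest levels of the array on day 1, at 4.30, 3.83 and 3.63, and reached 5.84, 7.21 and 5.88 on day 2 (2.39 ± 0.37, adjusted p = 0.0014). Slpi, an inhibitor of leukocyte proteases, went from 8.50, 7.97 and 8.43 to 10.90, 10.58 and 10.57 (2.38 ± 0.35, adjusted p = 0.001). Saa1, an acute-phase apolipoprotein, rose by 3.11 (adjusted p = 0.011). It lost its call without WT day 1 replicate 2 (2.71, adjusted p = 0.060), WT day 2 replicate 1 (2.84, 0.054) or WT day 2 replicate 2 (2.65, 0.12). The abundant alarmins S100a8 and S100a9 were already at 12.49 to 13.46 on day 1 and had differences of 1.13 and 1.44 that did not pass, although their arrays did not overlap. Defb6 and Defb1, the constitutive defensins of the list, had differences of 0.51 and 0.60 that did not pass.

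**Figure D3:**
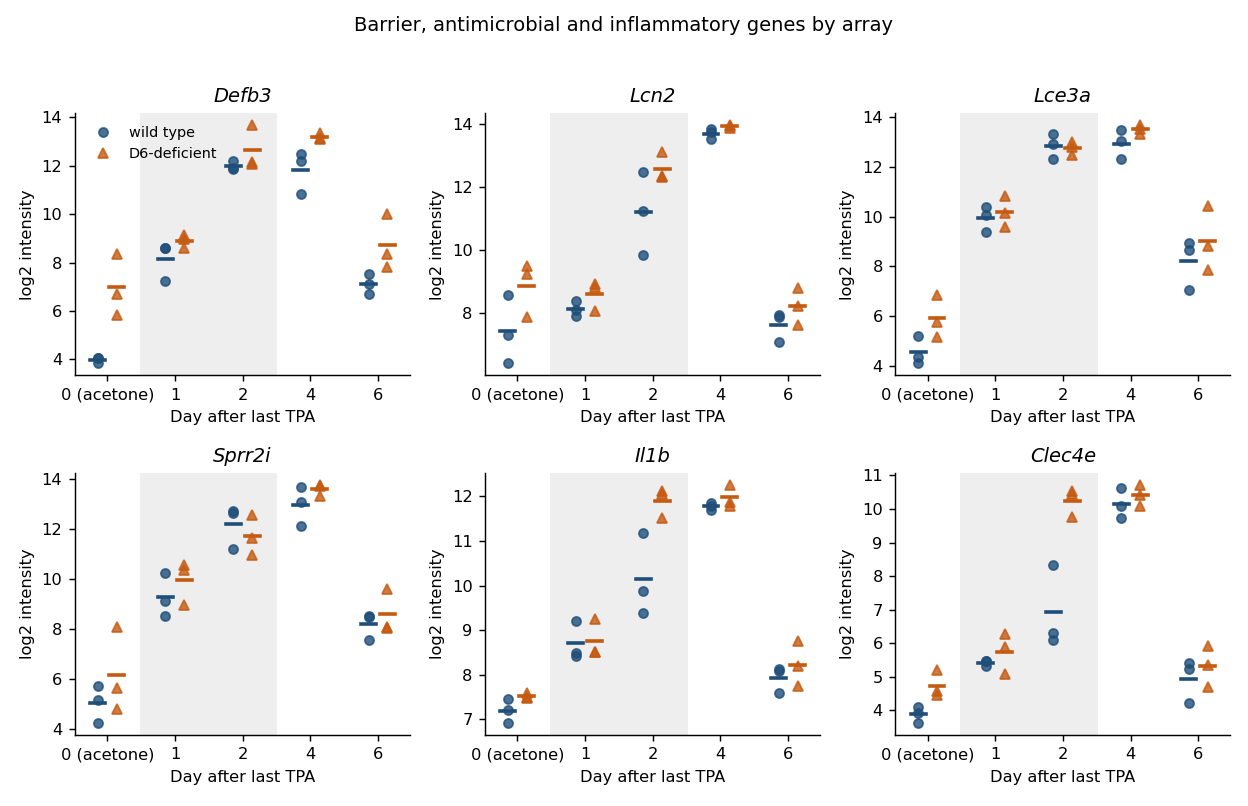
Log2 intensity (y axis) of 6 genes by day after the last TPA application (x axis, day 0 is acetone alone) in WT arrays (blue circles) and D6-deficient arrays (orange triangles), 3 per group, with a bar at each mean and days 1 and 2 shaded. Defb3, Lcn2, Lce3a and Sprr2i rise from day 1 to day 2 with no overlap in WT skin, and for Il1b and Clec4e the highest WT day 2 array is replicate 2.

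The cornified envelope changed in part. Of 9 small proline-rich genes 4 rose, with a median of 1.36, and 5 of 29 late envelope and barrier genes rose, with a median of 0.18. No gene of either list fell. Small proline-rich proteins are cross-linked into the envelope of stressed epidermis.

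Sprr2i (1422963_at) was at 10.24, 8.55 and 9.13 on day 1 and at 12.75, 12.66 and 11.20 on day 2 (2.90 ± 0.67, limma adjusted p = 0.030). Sprr2f was at 10.44, 9.34 and 9.91 on day 1 and at 12.75, 12.68 and 11.69 on day 2 (2.48 ± 0.59, adjusted p = 0.036). Neither overlapped between the days, and Sprr2j-ps and Sprr2k rose by 2.42 and 1.01. Sprr2 genes are near-identical, so their probe sets may share signal. Sprr2d and Sprr2h, at 11.06 to 12.84 on day 1, had differences of 1.36 and 1.45 that did not pass, and Sprr1a, at 12.28 to 12.79 on day 1, differed by 0.15. None of the 4 passed without WT day 1 replicate 2 or 3, or without WT day 2 replicate 1 or 2, at differences of 0.89 or more and adjusted p values of 0.054 to 0.20.

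The promoters of Sprr2f and Sprr2i both held TGACTCA, the element that AP-1 binds known for its response to TPA, here read on the opposite strand as TGAGTCA (capitals). The windows are chr3:92364937-92365236 and chr3:92407741-92408040 on the plus strand, from RefSeq on GRCm38.p6, and the match began 197 and 193 bases before the gene start.
Sprr2f: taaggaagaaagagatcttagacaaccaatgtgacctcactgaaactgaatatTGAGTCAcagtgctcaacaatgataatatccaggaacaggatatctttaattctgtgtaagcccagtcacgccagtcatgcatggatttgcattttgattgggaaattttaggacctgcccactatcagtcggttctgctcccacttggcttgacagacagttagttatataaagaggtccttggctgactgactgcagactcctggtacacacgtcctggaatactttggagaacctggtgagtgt
Sprr2i: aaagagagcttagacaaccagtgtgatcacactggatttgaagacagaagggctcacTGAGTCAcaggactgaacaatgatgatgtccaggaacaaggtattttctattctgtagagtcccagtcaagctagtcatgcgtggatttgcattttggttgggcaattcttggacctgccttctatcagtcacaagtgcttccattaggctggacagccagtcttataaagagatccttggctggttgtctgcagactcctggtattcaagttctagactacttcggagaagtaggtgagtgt
Of 9 tested genes of the list 8 had a promoter in the table and 6 held the motif, against 5.2% of all promoters. Genes that held it included Sprr1a, which did not pass.

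Within the late envelope list the Lce3 genes moved and the Lce1 genes did not pass. Lce3 proteins are made by wounded or inflamed epidermis and Lce1 proteins by normal epidermis. Lce3a was at 10.38, 9.36 and 10.05 on day 1 and at 12.92, 13.32 and 12.32 on day 2 (2.93 ± 0.54, limma adjusted p = 0.0067), and Lce3b rose by 2.34 and Lce3c by 1.67. The probe sets of Lce3b and Lce3c, of the x_at type, may share signal with similar genes. Lce3f, at 11.84 to 12.77 on day 1, differed by 1.31 and did not pass. The Lce1 genes had differences between -1.58, for Lce1m, and 0.32, for Lce1g, and most were above 12 on both days. Klk6, a serine protease, rose by 1.55, and Tgm3, a transglutaminase of the envelope, rose by 1.49. Loricrin, filaggrin and involucrin, the classical envelope proteins (Lor, Flg and Ivl), had differences of -0.35, -0.03 and 0.16, with adjusted p values of 0.81, 0.99 and 0.90. The count of this list was 0 without WT day 2 replicate 2, where Lce3a and Lce3b had 2.69 and 2.15 (adjusted p = 0.063 and 0.086). It was 1 without WT day 1 replicate 2 and 2 without WT day 1 replicate 3 or WT day 2 replicate 1, and Lce3c lost its call without any 1 of the 6 arrays (0.053 to 0.25).

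Clade B serpins, protease inhibitors of the epidermis, had 2 of 8 genes higher and none lower (median 0.74). Serpinb3a was at 8.93, 8.06 and 9.04 on day 1 and at 11.10, 11.43 and 10.54 on day 2 (2.35 ± 0.38, limma adjusted p = 0.002), and Serpinb6c rose by 1.66. Both passed without each array in turn, and their probe sets, of the x_at and s_at types, may share signal with similar genes. No gene of the stress keratin list passed, although all 4 had day 2 arrays above their day 1 arrays. Krt16, a keratin of activated epidermis, was at 12.34, 11.42 and 12.41 on day 1 and at 13.63, 13.60 and 12.67 on day 2 (1.24 ± 0.54, adjusted p = 0.30), from 5.43 to 6.85 in control skin. Krt6a differed by 1.10, Krt6b by 0.91 and Krt17 by 0.65. Krt77, a keratin of normal suprabasal epidermis and sweat ducts, was at 12.96, 13.56 and 12.63 on day 1 and at 11.46, 8.67 and 11.88 on day 2 (-2.38 ± 1.00, adjusted p = 0.28), with day 2 replicate 2 the lowest. None of 34 cell cycle and replication genes passed, at a median of -0.09.

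Several genes with large rises stood outside these lists. Spink12, a Kazal-type protease inhibitor (1453503_at), was at 4.60, 4.48 and 4.42 on day 1 and at 6.89, 9.07 and 7.18 on day 2 (3.22 ± 0.42, limma adjusted p = 1.9e-04). In control skin and on days 4 and 6 it was at 3.47 to 4.93, so its level was raised on day 2 alone. Fetub, a protease inhibitor of the fetuin family, was also highest on day 2, but not raised on that day alone. It was at 4.34, 4.60 and 5.50 on day 1 and at 8.02, 9.65 and 5.58 on day 2 (2.94 ± 0.54, limma adjusted p = 0.0069), and at most 4.52 on the other WT days. Its day 2 replicate 3 exceeded the highest day 1 array by little, and without day 2 replicate 2 the difference was 1.99 (adjusted p = 0.054). Tmprss11a, a transmembrane serine protease, was at 4.91, 3.51 and 5.77 on day 1 and at 7.64, 7.92 and 6.44 on day 2 (2.60 ± 0.41, adjusted p = 0.0015), and lay between 2.95 and 3.75 on days 0, 4 and 6. Uox, urate oxidase, rose by 3.31 (adjusted p = 0.017), with day 2 replicate 3 at 8.45 against 6.45 to 7.07 on day 1, and stood at 10.51 to 11.98 on day 4. It lost its call without WT day 1 replicate 2 or 3, or WT day 2 replicate 1 or 2, at 2.85 to 3.31 (adjusted p = 0.060 to 0.14). The gene 3110040M04Rik rose by 2.75, a call lost without WT day 1 replicate 3 (adjusted p = 0.094) or WT day 2 replicate 1 (0.069). Trim30d, a tripartite-motif gene, was at 7.72, 3.89 and 3.70 on day 1 and at 7.93, 7.78 and 8.05 on day 2 (2.82 ± 0.70, adjusted p = 0.046). Its rise rested on 2 day 1 arrays, it was 0.20 within the second set of arrays and 4.14 within the first, and control skin was at 7.39 to 7.98. Only without WT day 1 replicate 1 did it keep its call.

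Of 19 antioxidant and metallothionein genes tested, 2 rose and 1 fell, and the list median was 0.18. Slc7a11, which imports cystine for glutathione, was at 5.02, 4.93 and 5.17 on day 1 and at 7.54, 8.23 and 6.04 on day 2 (2.23 ± 0.33, limma adjusted p = 0.0011). Gsta4, a glutathione transferase, rose by 2.01, from 8.51 to 8.66 on day 1 to 9.89 to 11.32 on day 2. Mt4, the metallothionein of stratified epithelium, was at 9.06 to 10.45 on day 1 and at 5.78, 7.37 and 7.61 on day 2 (-2.91 ± 0.45, adjusted p = 0.0011), and it was at 9.90 to 10.26 in control skin. Slc2a1, the glucose transporter GLUT1, was the 1 gene of 15 in the glycolysis and glucose transport list that rose, by 0.86. It did not pass without WT day 1 replicate 3, WT day 2 replicate 1 or WT day 2 replicate 2 (0.15, 0.057 and 0.18). The sodium-coupled glucose transporter Slc5a1, named after its values were seen, rose by 1.78. Arg2, an arginase, fell by 1.97 while its days overlapped, since day 2 replicate 2 was at 7.39 and day 1 replicate 2 at 7.04. Without any 1 of the other 4 arrays it lost its call (-1.73 to -1.61, adjusted p = 0.13 to 0.26).

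Prss35, of the serine protease family, was among the 12 genes with the largest falls and in no list. It was at 7.10, 5.89 and 7.98 on day 1 and at 3.46, 3.39 and 3.91 on day 2 (-3.40 ± 0.50, limma adjusted p = 9.2e-04), with no overlap. Of 17 AP-1 and immediate early genes 1 passed, Ier3, a survival factor, which rose by 0.81 (adjusted p = 0.0034). Prss35 and Ier3 passed without each array in turn. Of 18 prostaglandin and lipoxygenase genes 1 rose, Pla2g4e, a phospholipase, by 1.50. It did not pass without WT day 1 replicate 2 or 3 or WT day 2 replicate 1 or 2 (adjusted p = 0.14 to 0.18). Of 13 complement and coagulation genes 2 rose, Cfp (properdin) by 0.92 and C3ar1, the receptor for C3a, by 0.89. Cfp did not pass without WT day 1 replicate 3 (adjusted p = 0.083) or WT day 2 replicate 2 (0.15) and was at the threshold without WT day 1 replicate 2, and C3ar1 did not pass without any 1 of the 6 arrays (0.065 to 0.21). Of the other probe sets of C3ar1, 1 passed (0.88) and 1 did not (0.51, adjusted p = 0.38). Of 20 fatty acid and cholesterol synthesis genes 1 fell, Insig1, which restrains sterol synthesis, by 0.86. Insig1 did not pass without any 1 of the 6 arrays (0.063 to 0.24) or under both other scalings (0.053 and 0.054). In lists with no gene past the test, Chi3l4, a chitinase-like protein of macrophages, had a difference of 1.70 (adjusted p = 0.37), Col12a1, a collagen, -1.38 (0.075), Plau, urokinase, 1.26 (0.055), and Tslp, an epithelial cytokine, 1.12 (0.069).

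Inflammatory mediators rose in small number. In the IL-1 family list 4 of 16 genes rose and none fell, with a median of 0.66. Il1b was at 9.20, 8.49 and 8.42 on day 1 and at 9.88, 11.17 and 9.39 on day 2 (1.44 ± 0.32, limma adjusted p = 0.025). Il1a, its epithelial counterpart, was at 7.51, 6.93 and 7.09 on day 1 and at 9.01, 7.74 and 8.53 on day 2 (1.25 ± 0.28, adjusted p = 0.029). The array with the highest Il1b, replicate 2, had the lowest Il1a of day 2. The receptor antagonist Il1rn rose by 0.88, and Il1rl2, the receptor for IL-36, rose by 0.66 (adjusted p = 0.0029). The IL-36 ligands Il1f6, Il1f8 and Il1f9 had differences of 1.15, 0.65 and 0.86 that did not pass, with no overlap between the days. Without WT day 1 replicate 3 the count was 1, and it was 0 in the fit to the 6 arrays alone. Without WT day 2 replicate 2 Il1b did not pass (0.93, adjusted p = 0.22). It did not pass without WT day 1 replicate 2 or 3 either (0.095 and 0.16). Il1a did not pass without WT day 1 replicate 2 or 3 or WT day 2 replicate 1 or 3 (0.076 to 0.15). The same held for Il1rn without WT day 1 replicate 3 or WT day 2 replicate 1 or 2 (0.071 to 0.17). Il1rl2 passed without each array in turn.

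Of 10 genes of the IL-17, IL-22 and IL-23 axis 2 rose, and these were Zc3h12a, an RNase that IL-17 induces, by 1.24 and Nfkbiz, a nuclear IκB protein, by 1.09. Il17a itself was at 4.20 to 4.34 on day 1 and at 5.63, 5.72 and 4.94 on day 2 (1.15, adjusted p = 0.20). Ccl20, which attracts CCR6-bearing cells, was the 1 gene of 17 CC chemokines that rose, with 6.89, 7.14 and 6.92 on day 1 and 9.50, 7.28 and 9.46 on day 2 (1.76 ± 0.37, adjusted p = 0.018). Day 2 replicate 2 barely exceeded day 1, and the call was lost without WT day 1 replicate 3 (1.73, adjusted p = 0.10), WT day 2 replicate 1 (1.39, 0.085) or WT day 2 replicate 3 (1.41, 0.080). Zc3h12a did not pass without WT day 1 replicate 3 or WT day 2 replicate 2 (0.098 and 0.12). Nfkbiz did not pass without WT day 1 replicate 2 or 3 or WT day 2 replicate 1 or 2 (0.066 to 0.15). No gene of the lists of CXCR3 chemokines, leukocyte chemokine receptors, interferon-induced genes (39 tested), MHC class I machinery, macrophage genes (26), T cell genes, mast cell genes, EGF receptor ligands or matrix metalloproteinases passed, and their medians lay between -0.23 and 0.40. In all, 22 of 41 lists had no gene past the test.

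In the neutrophil list 1 of 20 genes rose and 1 array stood apart. Csf3r, the receptor for the granulocyte growth factor, was at 7.77, 7.35 and 7.49 on day 1 and at 8.53, 9.33 and 8.20 on day 2 (1.15 ± 0.25, limma adjusted p = 0.023). The list median was 0.49. WT day 2 replicate 2 was the highest day 2 array in 17 of the 20 genes. Clec4e, a pattern receptor of myeloid cells, was at 5.31 to 5.47 on day 1 and at 6.32, 8.32 and 6.11 on day 2 (1.50 ± 0.43, adjusted p = 0.090). Cxcl2, a neutrophil attractant, was at 6.17, 6.18 and 6.84 on day 1 and at 7.45, 10.45 and 6.84 on day 2 (1.85 ± 0.66, adjusted p = 0.19). Without that array Csf3r no longer passed (0.83, adjusted p = 0.22), nor without WT day 1 replicate 2 or 3 (0.089 and 0.12). The median of the 6 neutrophil-attracting chemokines was 0.89 with all arrays and 0.52 without it. The markers of mature granules, Ngp, Camp and Ltf, had differences of 0.03 to 0.21, and Elane, Mpo and Ltf lay between 3.89 and 4.96 on both days.

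**Figure D4:**
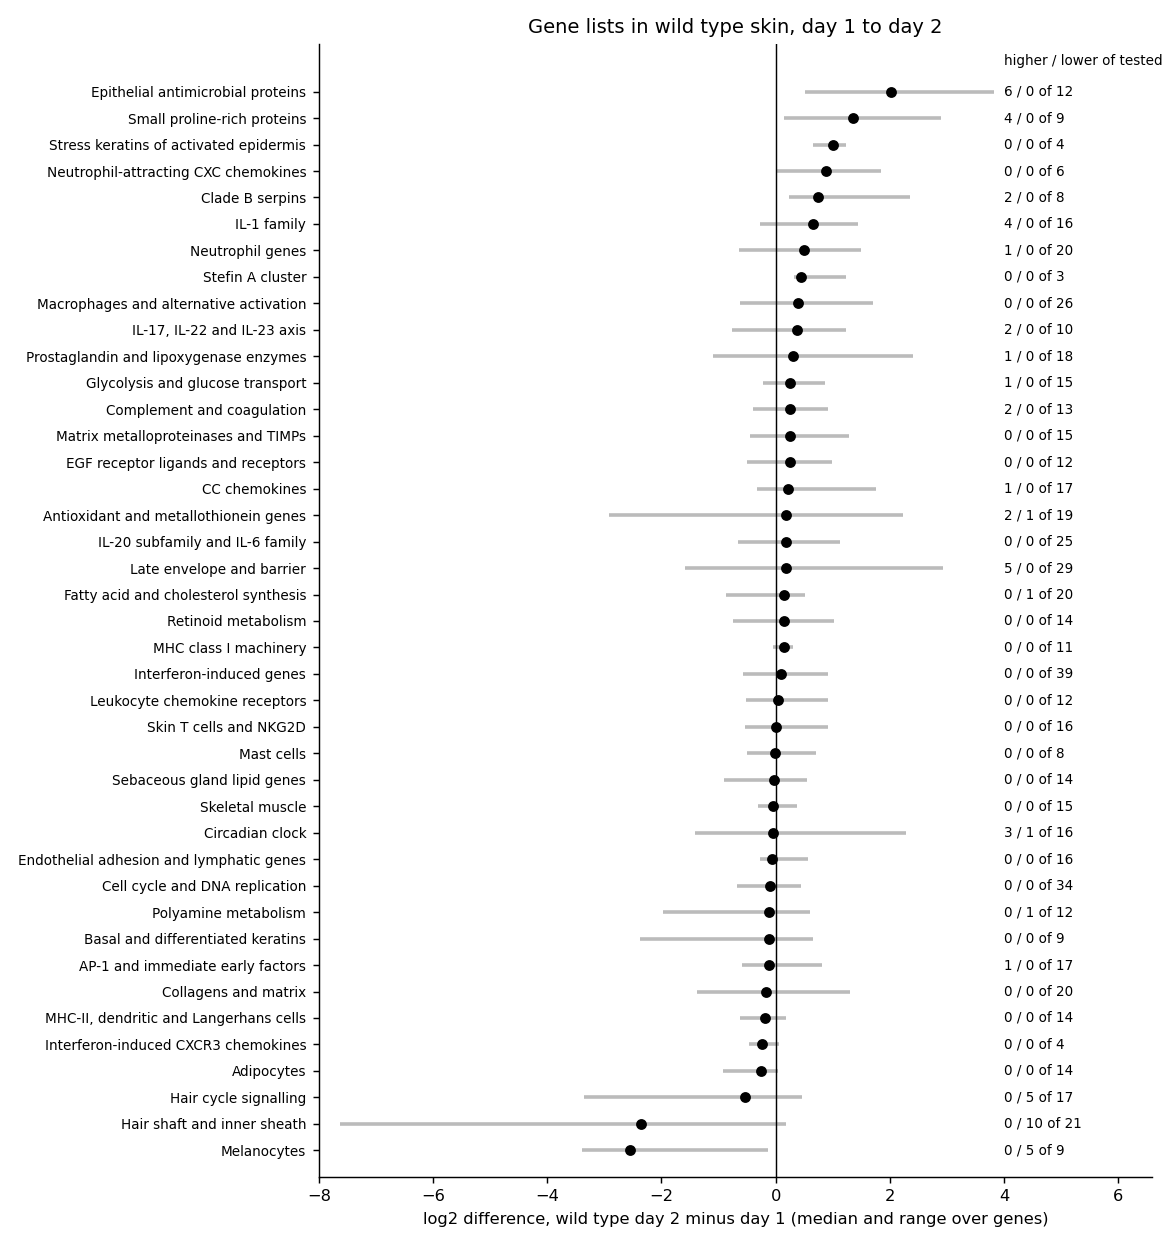
Median (point) and range (line) of the log2 difference of WT day 2 minus day 1 (x axis) over the tested genes of each of 41 lists, with the numbers of genes that rose and fell at an adjusted p under 0.05 in limma at the right. Medians run from -2.55 for melanocyte genes to 2.02 for epithelial antimicrobial proteins, against 0.00 over all genes.

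Clock genes changed with small errors, and of 16 genes of the list 3 rose and 1 fell. Nr1d1, the repressor REV-ERBα (1426464_at), was at 5.98, 5.97 and 5.97 on day 1 and at 8.15, 8.28 and 8.33 on day 2. The arrays of each day were nearly identical and the days far apart. The difference was 2.28 ± 0.19 (limma adjusted p = 2.2e-07), with 2.17 and 2.32 within the sets of arrays.

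Cry1, a repressor in the core loop, was at 8.38, 8.23 and 8.35 on day 1 and at a mean of 6.90 ± 0.13 (SD, n = 3) on day 2, with no overlap (-1.42 ± 0.11, adjusted p = 6.4e-08). Dbp, an output factor of the clock, rose by 1.37 and Nr1d2, the homologue of Nr1d1, by 0.65. Nfil3, which opposes Dbp and stands outside the list, fell by 1.03. Per2, a period repressor, gave unlike values by probe set, with -0.24 (adjusted p = 0.57) for the brightest and -1.49 (adjusted p = 0.015) for 1417602_at. Control skin and day 6 were nearer to day 2, with Nr1d1 at 8.19 to 8.91 and 7.58 to 7.92 and Cry1 at 6.38 to 6.87 and 6.94 to 7.15. The hour at which skin was taken is not given in the sources used here, and its part in these values was not tested. Nr1d1 and Cry1 passed without each array in turn. Dbp did not pass without WT day 1 replicate 3 or WT day 2 replicate 3 (adjusted p = 0.12 and 0.071). Nr1d2 did not pass without either of those, WT day 1 replicate 2 or WT day 2 replicate 1 (0.065 to 0.20).

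The probe sets that changed in WT skin could be followed in D6-deficient skin, whose arrays share none with the WT contrast. Both contrasts use the same estimate of spread for a probe set. The counts that passed in D6-deficient skin are therefore not independent of the choice of probe sets. Of the 43 called lower in WT skin, 43 had a lower mean in D6-deficient skin on day 2 than on day 1 and 41 passed there in that direction, against 5.24% of all probe sets. Their median difference was -2.51 in WT skin and -2.89 in D6-deficient skin. Of the 39 called higher, 36 had a higher mean in D6-deficient skin and 26 passed, against 5.18% of all probe sets, and the medians were 2.28 and 1.76. Defb3 rose by 3.83 in the WT mice and by 3.73 in the D6-deficient ones, and Lcn2 by 3.06 and 3.96. On the other WT days, all 39 had a lower mean on day 6 than on day 2, 34 had a higher mean on day 4 than on day 1, and 33 were already above control skin on day 1. Of the 43 called lower, 41 had a lower mean on day 4 than on day 1, and all 43 a higher mean on day 6 than on day 2. These counts on other WT days reuse the day 1 and day 2 arrays by which the probe sets were chosen. That choice by itself shifts such counts, so they are descriptions only.

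The change differed between the genotypes for 66 probe sets (limma, adjusted p under 0.05 and more than 3-fold, 0.183% of those tested), of which 64 had a higher difference of day 2 minus day 1 in D6-deficient skin (0.178%) and 2 a lower one (0.00555%). D6-deficient skin had 344 probe sets called between the days (0.955%). Of the 82 probe sets called in WT skin, 2 of the 39 called higher and none of the 43 called lower had a change that differed between the genotypes at an adjusted p under 0.05, as did 0.441% of all probe sets. The contrast of the 2 changes reuses the WT arrays by which the 82 were chosen. That choice by itself can shift these counts, so they too are descriptions only.

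Neutrophil attractants were among the genes with the largest difference. Cxcl3, a neutrophil attractant, was at 4.67, 6.67 and 3.55 on WT day 2, after 3.83 to 4.20 on day 1, and at 8.72 to 10.06 on D6-deficient day 2, after 3.94 to 4.34. The WT difference was 0.99 (adjusted p = 0.43) and the D6-deficient 5.31, and the changes differed by 4.33 ± 0.74 (adjusted p = 0.0046). Ccl3, an inflammatory CC chemokine, had a WT difference of 0.82 (adjusted p = 0.43) and rose by 4.57 in D6-deficient skin. WT day 2 replicate 2 was the highest WT day 2 array for both genes. Cxcl10, an interferon-induced chemokine, had a difference of -0.46 in WT skin (6.44, 5.88 and 6.89 on day 2) and rose by 1.91 in D6-deficient skin. Cd207, the Langerhans cell receptor langerin, was at 9.20 to 9.67 on day 1 and at 9.26, 7.93 and 9.32 on day 2 in WT skin, and fell from 9.55 to 9.81 to 5.36 to 7.34 in D6-deficient skin. Gsdma, an epithelial gasdermin, had a difference of 1.01 in WT skin (adjusted p = 0.090) and -0.80 in D6-deficient skin by one probe set, and 0.60 and -0.73 by its brighter one, whose changes did not differ past the test (adjusted p = 0.13). The number of differing probe sets ranged from 35, without D6-deficient day 1 replicate 1, to 92, without WT day 2 replicate 2.

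**Figure D5:**
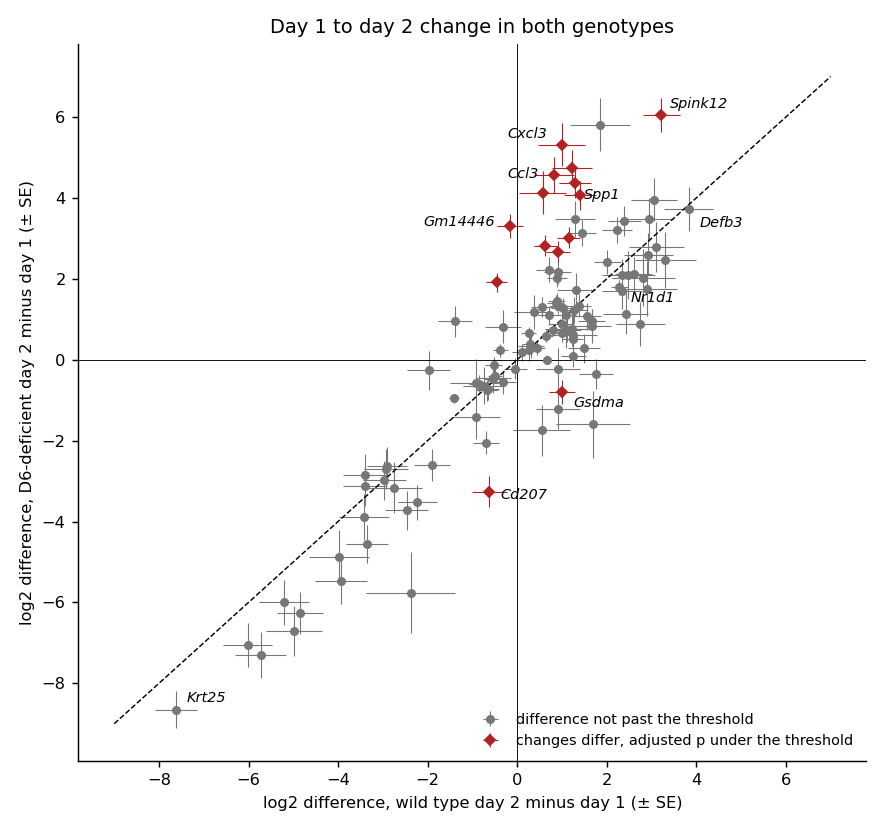
Log2 difference of day 2 minus day 1 in WT skin (x axis) and in D6-deficient skin (y axis) for the named genes, with bars of 1 SE and a dashed line of equal change. Hair follicle genes such as Krt25 (-7.62 and -8.65) lie along the line, and genes whose changes differed at an adjusted p under 0.05 (red) include Cxcl3 (0.99 and 5.31), Spink12 (3.22 and 6.04) and Cd207 (-0.62 and -3.26).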

How the data were processed

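Back skin RNA of 30 mice was measured on Affymetrix Mouse430_2 arrays, 3 for each of 10 groups of genotype and day. The authors deposited linear intensities, 1 column per array, each marked as raw. Their methods name RMA (background correction, quantile normalization and summarization) with a base-line transformation. The values were taken to be RMA output before that transformation, an inference from their scale and from array medians of 5.64 to 5.80 on the log2 scale, and not stated in the file. The second deposited text holds a sample sheet and was not used. Genome builds are not given in the sources used here. Signal close to background limits the precision of dim probe sets, and 3 arrays per group limit it throughout. The spread between mice of a group is the error of every test.

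The log2 of the deposited intensities was used with no further scaling. After removal of 64 control probe sets, the dimmest 20% by mean (9008 of 45037) were dropped as in the authors' methods, which left 36029 with a mean of at least 3.72. All 30 arrays entered 1 model, with a mean for each genotype on each day, fitted by lmFit and eBayes of limma 3.58.1 in R 4.3.3, which shares 1 estimate of the spread. P values were adjusted by Benjamini-Hochberg over all tested probe sets. "Called" means an adjusted p under 0.05 and more than 3-fold, "passed", "rose" and "fell" an adjusted p under 0.05. Errors are SE of the fit. No set test was run: lists are given by counts and medians, by the brightest probe set per gene (31923 probe sets had 1 symbol, 685 several and 3421 none). Symbols are those of the file, and of 17772 genes 16221 matched a RefSeq gene by Entrez identifier. Python 3.11.15, pandas 2.3.3, numpy 2.4.6 and matplotlib 3.10.9 made tables and figures.

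The comparison, the 41 lists and the markers were chosen with earlier results of these data known. Genes named are the 12 largest rises and falls among called probe sets whose arrays did not overlap, up to 4 genes past the test per list (1 or 2 with the largest change where none passed, not all of which are printed), their families, the D6 gene, and up to 5 in each direction for the difference between genotypes. Other genes were named after their values were seen. The fit was tested on simulated data. Replicate numbers did not pair the arrays: deviations of same-numbered arrays correlated at -0.25, -0.20 and -0.27. Alternatives covered the filter, scaling, offset, weights, variance prior, arrays in the fit, hybridization set, replicate block, fold threshold, the methods' t-test and each array left out.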

Additional observations from a re-analysis of the deposited data

Results flagged for a closer look

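Among the named genes 14 had a change from day 1 to day 2 that differed between the genotypes by the limma contrast of the 2 changes, at an adjusted p under 0.05. Each value is the D6-deficient change minus the WT change on the log2 scale. Chemokines were Cxcl3 at 4.33, Ccl3 at 3.74, Cxcl5 at 2.65 and Cxcl10 at 2.37. Genes of neutrophils and other myeloid cells were Csf3r at 1.87, Irg1 (now Acod1, an enzyme that makes itaconate) at 3.52 and Spp1 (osteopontin) at 3.08. Interferon-induced genes were Gm14446 (now Ifit1bl1) at 3.47, Oasl1 at 2.19 and Ifitm1 at 1.76. Of the secreted epithelial proteins, Spink12 was at 2.82 and Reg1 at 3.56. Lower in D6-deficient skin were Cd207 at -2.65 and Gsdma at -1.80, the latter by the dimmer of 2 probe sets.

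Spink12 and Csf3r were the 2 of these that also passed in WT skin, by 3.22 and 1.15. For Cxcl3, Ccl3, Irg1 and Reg1 the WT day 2 arrays were unlike each other, with replicate 2 at 6.67, 7.42, 7.34 and 7.32 and the other two between 3.55 and 5.21. Without that array 92 probe sets differed between the genotypes, against 66 with all arrays.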

How the results depend on the processing

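The 82 called, the 432 that passed and the 66 whose change differed between genotypes stayed within 1.5 times of these counts under the filters, scalings, variance prior and the hybridization set as a covariate (75, 338 and 67). So did the counts called and passed under the offset, the averaging of probe sets and the 15 WT arrays alone, which were not run for the difference between genotypes. Array weights gave 130, 1649 and 112. The 6 arrays alone gave 30 called and 62 that passed. Within the first set of arrays 18 were called and 21 passed, and within the second 4 and 4, where 1 array of a day is assumed to vary like the other groups. A threshold of more than 2-fold gave 172 called and 130 differing between genotypes, and no fold threshold gave 432 and 159. The methods' t-test gave 0 called and 0 passed after Benjamini-Hochberg adjustment (smallest adjusted p 0.071), while 75 of the 82 were also called by it at an unadjusted p under 0.05. By limma 4861 probe sets had an unadjusted p under 0.05. Unadjusted, the t-test gave 120 for the difference between genotypes, by the arrays of that contrast. Without each array in turn the counts ranged from 39 to 92 called, from 79 to 421 passed and from 35 to 92 for the difference between genotypes. The lowest counts of called and passed came without WT day 1 replicate 3, and 90 passed without WT day 2 replicate 2, 224 without WT day 2 replicate 1 and 256 without WT day 1 replicate 2. With replicate number as a block, 79 were called, 390 passed and 66 differed between genotypes. Of the 60 named genes that passed, 28 passed without each array in turn, and Krt25 and Nr1d1 passed under all alternatives other than the t-test. No named gene that passed changed direction. Where these counts moved, the cause was not tested. Dim probe sets near background, such as Cxcl5 at 3.15 to 3.35 on day 1, give differences that may understate the change.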

Other observations

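Some chaperone genes fell, a group that none of the lists held and that was picked after its values were seen. Of 71 tested genes whose symbols begin with Hsp or Dnaj, by the brightest probe set, 7 fell and none rose in limma at an adjusted p under 0.05, with a median log2 difference of -0.11, against 0.72% of all genes lower and a median of 0.00. Hsph1, a cytosolic co-chaperone (1425993_a_at), was at 10.33, 10.01 and 10.45 on day 1 and at 9.36, 9.09 and 8.75 on day 2, a difference of -1.20 ± 0.18 (adjusted p = 9.2e-04), and its second probe set fell by 1.39. The days did not overlap, and control skin was at 9.12 to 9.47. Hspb1, the small heat shock protein of keratinocytes, fell by 0.69, Hspb8 by 0.65, Dnaja1 by 0.57 and Hspa5, the chaperone of the endoplasmic reticulum, by 0.46. In D6-deficient skin Hsph1 fell by 1.20.

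Lrrc15, a matrix-bound membrane protein (-2.22), Col11a1, a fibrillar collagen (-2.71), Igfbp2, a binding protein of insulin-like growth factors (-1.86), and Ptgds, which makes prostaglandin D2 (-2.08), were called lower as well. For Lrrc15 and Ptgds these are values of the dimmer of 2 probe sets, and the brighter gave -1.95 (adjusted p = 0.026) and -1.10 (adjusted p = 0.10). These genes too were named after their values were seen. Fcna, a ficolin of innate immunity (1.83), Lpo, lactoperoxidase (2.33), and Prg4, lubricin (1.90), were called higher.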
